A study of Mus musculus with 12 samples.

Results

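The genes described here are cell cycle and DNA replication genes, a list of 50 whose products copy the genome or carry a cell through mitosis. A gene was represented by the probe set, among those that the platform annotation gives to that symbol alone, with the highest mean signal over 12 arrays. This found 49 of the 50 genes, out of 18193 genes measured. Ccnb1 had no such probe set and was not analysed here. All 49 passed the filter on low signals and were tested, among 10929 genes tested in all. The filter asked for a signal above the array median in at least 3 arrays. Plk1 and Ttk met it in the 3 CD103+ cDC arrays alone. Bub1, Ccne2, Cenpe, Ndc80 and Nuf2 met it in 4 or 5 arrays, those 3 among them. Counts below of members high in CD103+ cDC include such genes and are to that extent not independent of the filter.

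The arrays measured dendritic cells (DC) of male C57BL/6 mice aged 8 to 12 weeks, sorted into 4 populations 16 h after 100 ng of lipopolysaccharide (LPS) and 100 ug of ovalbumin in 50 ul had been given into the airways. In the lung these were CD103+ cDC and, among CD11bhi cells, Ly6Chi moDC (labelled "inf."), CD14hi moDC and CD14lo cDC, where cDC stands for conventional and moDC for monocyte-derived DC. Each had 3 arrays, each from a pool of 20 mice with a sort purity of over 93%, and 50 ng of RNA was amplified for each. Whether arrays of the same replicate number share mice is not given. All mice had received both agents, so no value below compares treated with untreated lung.

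A dividing cell loads the MCM helicase onto replication origins in G1, activates it with Cdc45 and the GINS complex in S phase, and needs ribonucleotide reductase to supply deoxynucleotides. E2F factors drive the genes for replication. The MuvB complex with B-Myb and FoxM1 drives the later mitotic genes, whose products assemble the spindle and separate the chromosomes. DREAM, a complex that also holds MuvB, represses cell cycle genes in resting cells. Conventional DC arise from precursors that still divide and can themselves divide in tissues, while monocytes and the cells they give rise to are generally regarded as dividing little.

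Signals are MAS5 intensities in arbitrary units. A difference is given on the scale of log2(signal + 50.0), with its standard error (SE) from the limma model, and a fold is 2 to that power, which understates the change of a dim gene. Calls rest on limma with p-values adjusted by Benjamini-Hochberg over all 10929 genes, at a threshold of 0.05. The number of arrays limits the precision, and 12 members had a mean signal under 150, near the array medians of 72.4 to 109. In such sorted pools, fewer cells in cycle and less of a message per cycling cell cannot be told apart.

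Most members were highest in CD103+ cDC and lowest in Ly6Chi moDC, with CD14hi moDC and CD14lo cDC between them. The mean was highest in CD103+ cDC for 42 of 49 members and lowest in Ly6Chi moDC for 45, and both held for 39. All 3 CD103+ cDC arrays lay above the other 9 arrays for 27 members, against 11.9% of all genes tested, and all 3 Ly6Chi moDC arrays lay below the other 9 for 36 members, against 9.61% of all genes. The CD14hi moDC arrays lay above the other 9 for 2 members, Gins1 and Gins2, against 3.43% of all genes, so this share was near that of all genes. The F test for any difference among the 4 populations called 43 members, against 51.1% of all genes. With the pseudocount of 50.0, the largest differences were those of Ube2c, Nusap1, Rrm2, Ccna2 and Cdca3 between CD103+ cDC and Ly6Chi moDC, from 12.5-fold for Ube2c to 7.05-fold for Cdca3.

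**Figure D1:**
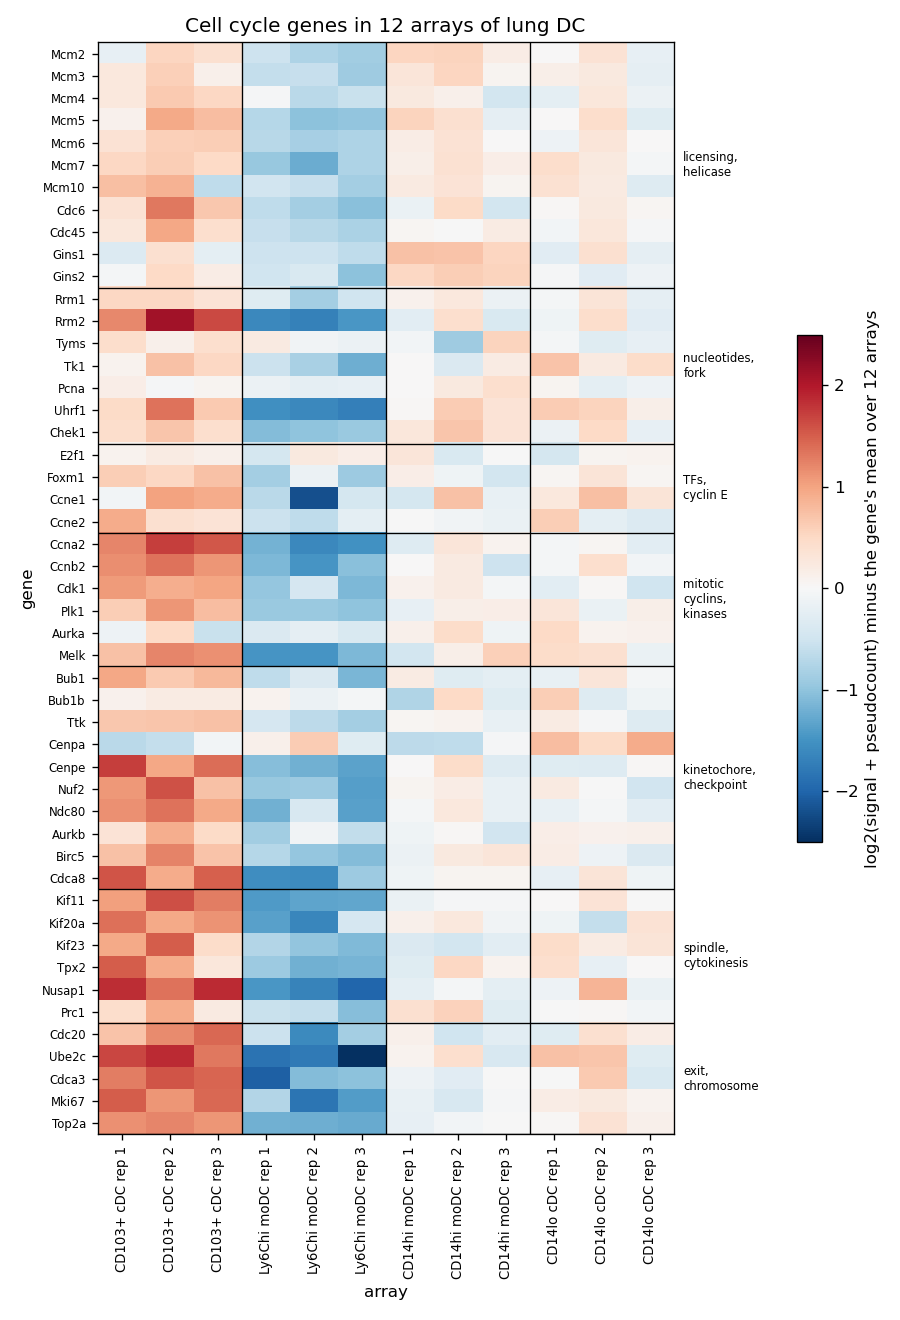
Log2(signal + pseudocount) of each of 49 members in each of 12 arrays, minus the member's mean over the arrays (colour bar), with genes grouped by role in rows and the arrays of each population side by side in columns. The 3 CD103+ cDC columns are mostly red and the 3 Ly6Chi moDC columns mostly blue, with Cenpa, Gins1, Pcna, E2f1, Tyms, Aurka and Bub1b among the exceptions.

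Between CD103+ cDC and Ly6Chi moDC, 42 members were higher and 0 lower, where 23.2% of all genes were called higher and 24.3% lower. The same 49 members had a median log2 difference of 1.53, against a median near 0 for all genes. CD103+ cDC against CD14hi moDC gave 26 members higher and 1 lower (16.9% and 20.3% of all genes), with a median of 0.75. CD103+ cDC against CD14lo cDC gave 24 higher and 1 lower (13.4% and 15.3% of all genes), with a median of 0.56. These 3 comparisons share the CD103+ cDC arrays and are therefore not independent.

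Ly6Chi moDC had 34 members lower and 0 higher than CD14hi moDC (11.4% and 6.82% of all genes), with a median log2 difference of -1.005. They had 37 lower and 0 higher than CD14lo cDC (14.0% and 11.2% of all genes), with a median of -0.94. CD14hi moDC and CD14lo cDC, a monocyte-derived and a conventional population by their labels, had 2 members called higher in CD14hi moDC and 2 lower (9.24% and 6.95% of all genes), with a median of 0.01. The share of members called there was no larger than that of all genes. The medians of all genes lay between -0.03 and -0.01 in the 6 comparisons.

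Replication and mitosis members parted in where the differences fell. Of 18 members in the licensing, helicase, nucleotide supply and fork groups, 15 were higher in CD103+ cDC than in Ly6Chi moDC (23.2% of all genes). Only 2 were higher than in CD14hi moDC and 2 higher than in CD14lo cDC, shares below those of all genes (16.9% and 13.4%). Of 27 in the mitotic groups, 24 were higher in CD103+ cDC than in Ly6Chi moDC, 23 higher than in CD14hi moDC and 22 higher than in CD14lo cDC (23.2%, 16.9% and 13.4% of all genes). Against CD14hi moDC, the median log2 difference of CD103+ cDC was 0.35 over the replication members and 1.11 over the mitotic members. Against CD14lo cDC, it was 0.41 over the replication members and 1.01 over the mitotic members.

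Below the middle populations the groups were closer. Ly6Chi moDC were lower than CD14hi moDC in 15 replication and 19 mitotic members (11.4% of all genes), with medians of -0.97 and -1.10. They were lower than CD14lo cDC in 12 replication and 23 mitotic members (14.0% of all genes), with medians of -0.76 and -1.05. Called higher in CD103+ cDC against all 3 other populations were 23 members (9.47% of all genes), of which 22 were mitotic and 1, Rrm2, a replication gene. Called lower in Ly6Chi moDC against all 3 others were 31 members (6.52% of all genes), of which 12 were replication and 19 mitotic genes. Of these, 10 were not called between CD103+ cDC and either middle population (1.86% of all genes), namely Mcm2, Mcm3, Mcm5, Mcm7, Cdc45, Rrm1, Tk1, Uhrf1, Chek1 and the mitotic gene Prc1. Called at both steps, higher in CD103+ cDC against all others and lower in Ly6Chi moDC against all others, were 19 members (3.27% of all genes), 18 of them mitotic. Aurka, Bub1b, E2f1 and Tyms were called in no pair of populations, as were 40.0% of all genes. Among the 10, calls of Cdc45, Rrm1, Tk1, Mcm2 and Prc1 between Ly6Chi moDC and a middle population were lost on leaving out some single arrays of the populations compared, at adjusted p values from 0.0502 to 0.178. The difference between the role groups was not tested.

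**Figure D2:**
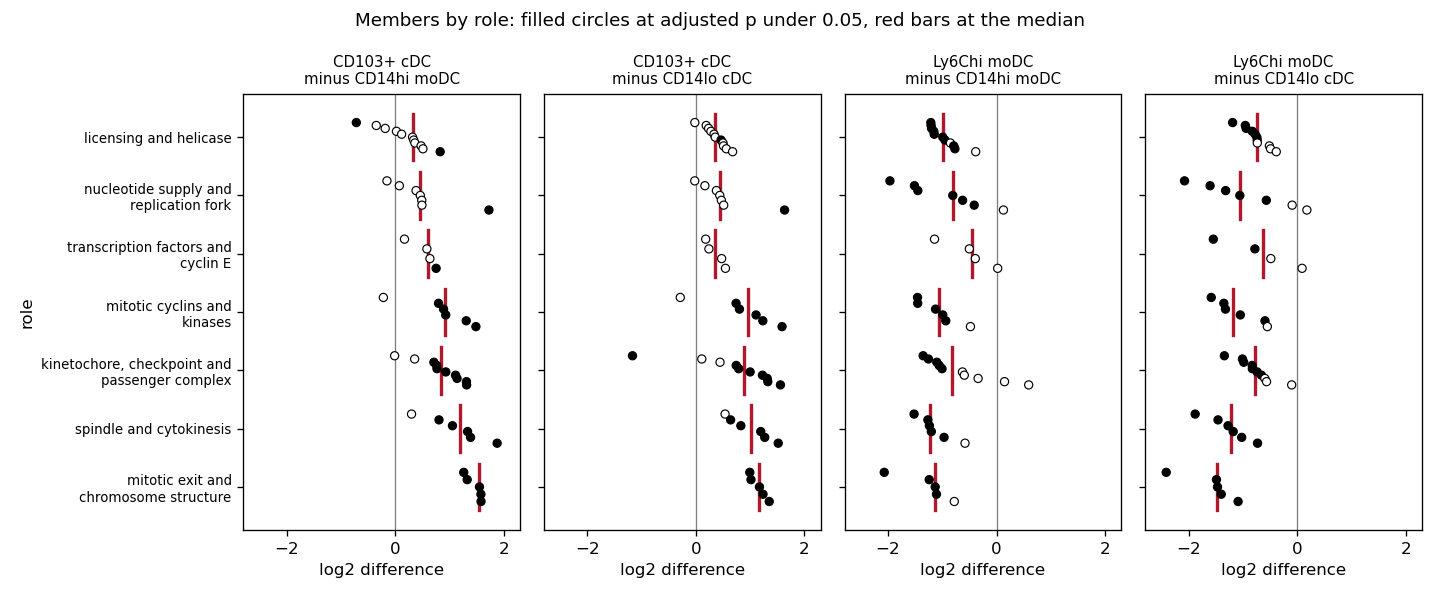
Log2 difference of each member (circles, filled where the adjusted p was under 0.05) by role group, with red bars at the group medians, for CD103+ cDC minus CD14hi moDC, CD103+ cDC minus CD14lo cDC, Ly6Chi moDC minus CD14hi moDC and Ly6Chi moDC minus CD14lo cDC. In the panels of CD103+ cDC the filled circles lie mostly in the 4 mitotic groups, and in the panels of Ly6Chi moDC they lie in nearly all groups.

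Averaged over the 27 mitotic members, the level relative to each gene's mean over 12 arrays was 0.96, 1.07 and 0.90 in CD103+ cDC, -0.96, -0.99 and -1.08 in Ly6Chi moDC, -0.11, 0.09 and -0.11 in CD14hi moDC, and 0.13, 0.15 and -0.04 in CD14lo cDC. The CD103+ cDC arrays differed among themselves by less than any of them differed from the nearest array of another population. Averaged over the 18 replication members, it was 0.31, 0.75 and 0.41 in CD103+ cDC, -0.62, -0.80 and -0.85 in Ly6Chi moDC, 0.19, 0.31 and 0.11 in CD14hi moDC, and 0.07, 0.24 and -0.11 in CD14lo cDC. Here CD103+ cDC replicate 2 was the highest of all arrays, CD103+ cDC replicates 1 and 3 lay only just above the highest CD14hi moDC array, and the 3 Ly6Chi moDC arrays were again the lowest.

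The Gapdh ratio, a measure of RNA quality, moved with that split of CD103+ cDC replicate 2 from replicates 1 and 3. For Gapdh, the signal at the 3′ end divided by that at the 5′ end, which rises as RNA breaks down or is copied incompletely, was 3.26, 1.68 and 3.27 in CD103+ cDC replicates 1, 2 and 3, and 1.48 to 2.29 in the other 9 arrays. Beyond its use as a covariate, its part in the split was not tested. With this ratio in the model, 43 members were higher in CD103+ cDC than in Ly6Chi moDC, 22 higher than in CD14hi moDC and 22 higher than in CD14lo cDC. The same ratio of beta-actin was 1.12, 0.969 and 1.03 in CD103+ cDC replicates 1, 2 and 3, and 0.987 to 1.05 in the other 9 arrays. By beta-actin, replicate 3 thus lay within the range of the other populations, replicate 1 above it and replicate 2 below it.

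The sort markers Itgae, Cd14 and Itgam followed the labels. Itgae, which encodes CD103, averaged 15178 ± 2597 in CD103+ cDC and at most 855 ± 345 elsewhere (SD, n = 3), Cd14 averaged 11669 ± 2479.7 in CD14hi moDC and 1537 ± 245 in CD14lo cDC, and Itgam, which encodes CD11b, averaged 50.7 ± 20.5 in CD103+ cDC and at least 1115 ± 222 in the others. Ly6c1 and Ly6c2 were not analysed here, so the Ly6C label was not checked. Among cells that could bring cycling genes into a sort, 5 of 6 T cell markers measured, Cd3e, Cd3d, Cd3g, Cd5 and Themis, did not pass the filter, with means at or below 76.6. The other T cell marker, Il7r, moved with the members, at 3782 ± 286 in CD103+ cDC, 1673 ± 544 in Ly6Chi moDC, 3350.0 ± 406 in CD14hi moDC and 2860.4 ± 301 in CD14lo cDC (SD, n = 3), called higher in CD103+ cDC than in Ly6Chi moDC (log2 difference 1.20 ± 0.18, adjusted p = 2.08e-05) and lower in Ly6Chi moDC than in both middle populations (adjusted p = 0.000436 against CD14hi moDC and 0.00251 against CD14lo cDC). The summed signal of the 6 T cell markers was mostly that of Il7r and adds little to it. This sum ran from 3775 to 4376 in CD103+ cDC, 1386 to 2395 in Ly6Chi moDC, 3145 to 3966 in CD14hi moDC and 2763 to 3389 in CD14lo cDC.

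Of 7 NK cell markers measured, 4 fell short of the filter, namely Gzmb, Eomes, Nkg7 and Ncr1, with means of at most 26.4, and 3 were tested. Klrd1 and Klre1, lectin-like receptor genes of NK cells, were higher in CD103+ cDC than in Ly6Chi moDC and than in CD14hi moDC, and lower in Ly6Chi moDC than in CD14lo cDC, as were many members. Their order differed at the top, since Klrd1 averaged 2586 ± 225 in CD103+ cDC, 481 ± 30.6 in Ly6Chi moDC, 1036 ± 309 in CD14hi moDC and 6418 ± 383 in CD14lo cDC (SD, n = 3). The third NK cell marker tested was called in none of those 3 comparisons and leaned the other way in CD103+ cDC. Its log2 difference there was -0.34 against Ly6Chi moDC and -0.23 against CD14hi moDC. The summed NK cell signal ran from 3355 to 3949 in CD103+ cDC, 1480.1 to 1841 in Ly6Chi moDC, 1899.6 to 2417 in CD14hi moDC and 7283 to 8412 in CD14lo cDC. The part of T or NK cells in the members' levels was not tested.

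Markers of epithelium were highest in CD103+ cDC, the population with the highest members. Of 7 tested, 6 were higher there than in Ly6Chi moDC, 5 higher than in CD14hi moDC and 5 higher than in CD14lo cDC (23.2%, 16.9% and 13.4% of all genes). Cdh1 was lower against each. The summed signal of the epithelial markers ran from 7157 to 11893 in CD103+ cDC, 2771 to 4049 in Ly6Chi moDC, 2993 to 4220.5 in CD14hi moDC and 4393 to 7506 in CD14lo cDC. Sftpc, a surfactant protein of alveolar cells, averaged 928 ± 173 in CD103+ cDC, 195 ± 58.9 in Ly6Chi moDC, 355 ± 53.7 in CD14hi moDC and 151 ± 69.5 in CD14lo cDC (SD, n = 3), and Krt8 and Krt18, keratins of simple epithelium, did not pass the filter. Neutrophil markers were highest in Ly6Chi moDC, the population with the lowest members, where all 4 tested were higher than in each other population. Of all genes, 24.3% were higher there than in CD103+ cDC, 6.82% than in CD14hi moDC and 11.2% than in CD14lo cDC. The summed neutrophil signal ran from 256 to 1878 in CD103+ cDC, 4033 to 4336 in Ly6Chi moDC, 1030.3 to 2077 in CD14hi moDC and 907 to 1236 in CD14lo cDC, and Ngp and Ltf, granule genes, did not pass the filter. Summed alveolar macrophage and plasmacytoid DC signals were also highest in Ly6Chi moDC, at 6253 to 8117 and 7868 to 8698. The next highest, in the same order, were 1250 to 7842 in CD14lo cDC and 6452 to 7300 in CD14hi moDC. Of 6 and 5 tested, 1 of each was higher and 2 lower in Ly6Chi moDC than in CD103+ cDC (24.3% and 23.2% of all genes). The fibroblast sum was highest in CD14hi moDC, at 4734 to 5590, then in Ly6Chi moDC, at 2846 to 4524. The part of any of these cell types in the members' levels was not tested.

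Promoter sequence was examined because the members moved together and yet parted by role. The windows run from 250 bases before to 50 after the transcription start, from RefSeq on GRCm38.p6, and 40 of the 49 members had one. Mitotic genes are known to carry the CHR element, bound by DREAM and MuvB, and CCAAT boxes, bound by NF-Y, while replication genes are known for E2F sites. The letters searched on both strands were TTTGAA or TTTAAA for the CHR, CCAAT for the CCAAT box, and TTTCCCGC, TTTCGCGC, TTTGCCGC or TTTGGCGC for the E2F site.

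The 4 windows shown belong to the pair of members with the smallest F test p in the licensing group, Mcm7 and Mcm6, and in the mitotic cyclin and kinase group among members with an entry, Ccnb2 and Melk (Mcm7 has a further window, not used). Each is written 5′ to 3′ on the strand of its gene, and capitals mark the matches. The windows are chr5:138171834-138172133, minus strand, for Mcm7, chr1:128359656-128359955, minus strand, for Mcm6, chr9:70421505-70421804, minus strand, for Ccnb2, and chr4:44300667-44300966, plus strand, for Melk.
Mcm7: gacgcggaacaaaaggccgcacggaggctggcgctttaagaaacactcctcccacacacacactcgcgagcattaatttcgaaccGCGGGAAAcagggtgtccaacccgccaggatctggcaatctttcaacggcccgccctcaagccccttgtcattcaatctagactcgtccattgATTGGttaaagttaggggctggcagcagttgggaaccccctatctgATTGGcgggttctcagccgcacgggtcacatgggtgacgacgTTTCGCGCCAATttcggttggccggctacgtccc
Mcm6: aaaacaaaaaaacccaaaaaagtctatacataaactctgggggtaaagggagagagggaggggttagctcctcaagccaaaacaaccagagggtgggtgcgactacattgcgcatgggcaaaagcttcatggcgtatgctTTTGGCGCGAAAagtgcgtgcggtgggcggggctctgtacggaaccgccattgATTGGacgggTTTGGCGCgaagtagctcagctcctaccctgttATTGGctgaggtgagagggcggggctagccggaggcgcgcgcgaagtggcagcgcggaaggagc
Ccnb2: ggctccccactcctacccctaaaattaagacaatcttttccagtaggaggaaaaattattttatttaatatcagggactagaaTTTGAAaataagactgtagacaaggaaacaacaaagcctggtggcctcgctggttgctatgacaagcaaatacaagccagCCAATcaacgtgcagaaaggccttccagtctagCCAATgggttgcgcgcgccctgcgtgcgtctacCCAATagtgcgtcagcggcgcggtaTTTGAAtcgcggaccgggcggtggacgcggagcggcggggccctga
Melk: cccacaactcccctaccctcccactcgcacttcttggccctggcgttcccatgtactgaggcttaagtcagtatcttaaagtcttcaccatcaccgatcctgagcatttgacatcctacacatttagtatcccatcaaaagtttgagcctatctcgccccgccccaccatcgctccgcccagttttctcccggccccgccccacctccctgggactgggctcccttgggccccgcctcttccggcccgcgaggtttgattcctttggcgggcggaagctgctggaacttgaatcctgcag

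Mcm7 held 2 E2F and 3 CCAAT matches, of which an E2F match and a CCAAT match share a base, and Mcm6 held 3 E2F matches, with the first 2 overlapping, and 2 CCAAT matches. Neither held a CHR match. Ccnb2 held 2 CHR matches, at bases 84 and 255 of the window, and 3 CCAAT matches between them, with no E2F match. Melk held none of the letters searched in this window.

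Over the windows of the mitotic members, 19 of 23 (82.6%) held a CHR match, against 5 of 15 (33.3%) of replication members and 27.8% of 27025 genes. E2F matches stood in 1 of 23 mitotic windows (4.3%), 5 of 15 replication windows (33.3%) and 2.3% of all genes. CCAAT matches were in 78.3% of mitotic and 73.3% of replication windows, against 37.9% of all genes. A match is a string of letters and not a measured binding site, and these shares come from sequence alone.

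**Figure D3:**
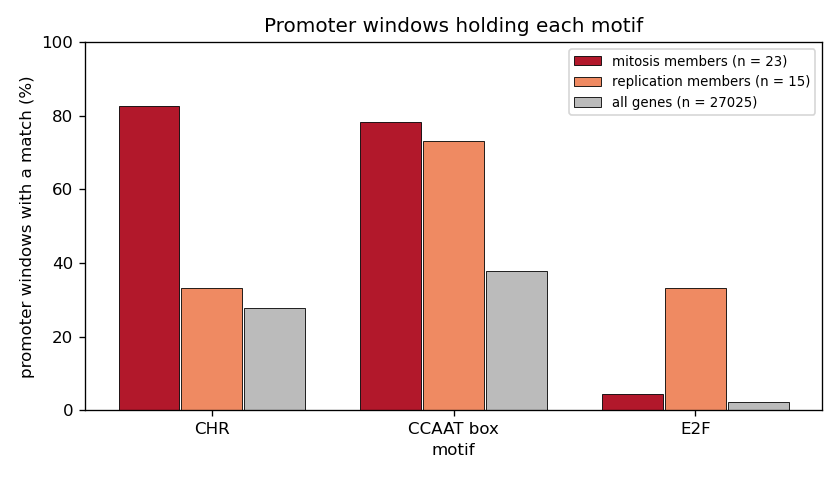
Percent of promoter windows of 300 bases that hold at least 1 match of the CHR, CCAAT box or E2F letters, for 23 mitotic members, 15 replication members and 27025 genes. The CHR bar is tallest for mitotic members (82.6%), and the E2F bar is tallest for replication members (33.3%).

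The licensing and helicase group had 11 members, of which 10 were higher in CD103+ cDC than in Ly6Chi moDC (23.2% of all genes). In Ly6Chi moDC, 9 were lower than in CD14hi moDC (11.4% of all genes) and 7 lower than in CD14lo cDC (14.0% of all genes). Mcm7, a subunit of the MCM ring, gave signals of 2869.7, 3055 and 2796 in CD103+ cDC, 1007, 811 and 1141 in Ly6Chi moDC, 2181, 2576 and 2222 in CD14hi moDC, and 2708, 2336 and 1907 in CD14lo cDC. The Ly6Chi moDC arrays lay far below the other 9, and the other 3 populations lay close together, with all CD103+ cDC arrays on top. Ly6Chi moDC were 2.31-fold lower than CD14hi moDC (log2 difference -1.21 ± 0.16, adjusted p = 1.67e-05) and 2.28-fold lower than CD14lo cDC (adjusted p = 1.09e-05), while CD103+ cDC differed from CD14hi moDC by 0.32 ± 0.16 (adjusted p = 0.121). Its promoter is the window above with 2 E2F matches.

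Mcm6, another ring subunit, gave 4630.0, 5415 and 5468 in CD103+ cDC, 2181, 1986 and 2076 in Ly6Chi moDC, 4055, 4616 and 3587 in CD14hi moDC, and 3275, 4425 and 3574 in CD14lo cDC. Again the Ly6Chi moDC arrays were the lowest, and the CD103+ cDC arrays all lay above the other 9, as they did for Mcm7. CD103+ cDC were 2.45-fold higher than Ly6Chi moDC (log2 difference 1.29 ± 0.14, adjusted p = 4.05e-07). The call against CD14lo cDC (log2 difference 0.46 ± 0.14, adjusted p = 0.0182) was lost without CD103+ cDC replicate 3, CD14lo cDC replicate 1 or CD14lo cDC replicate 3, at adjusted p values of 0.0649, 0.0944 and 0.0664.

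Mcm5 gave 2612, 4723 and 4149.9 in CD103+ cDC, 1455, 1164 and 1198 in Ly6Chi moDC, 3596, 3225 and 2062 in CD14hi moDC, and 2428, 3309 and 1949 in CD14lo cDC. The Ly6Chi moDC arrays stood apart below, and the other populations overlapped widely. Ly6Chi moDC were 2.23-fold lower than CD14hi moDC (log2 difference -1.16 ± 0.23, adjusted p = 0.00142). Of the remaining ring subunits, Mcm2, Mcm3 and Mcm4 had CD103+ cDC 1.95-fold, 2.02-fold and 1.86-fold above Ly6Chi moDC, and none of these 3 was called between CD103+ cDC and either middle population.

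Cdc6, which loads the ring onto origins, was 3.06-fold higher in CD103+ cDC than in Ly6Chi moDC, and Cdc45, which joins the active helicase, 2.37-fold higher. Mcm10, which helps to activate it, was 1.96-fold higher in CD103+ cDC than in Ly6Chi moDC (log2 difference 0.97 ± 0.32, adjusted p = 0.0175), a call lost without CD103+ cDC replicate 1, CD103+ cDC replicate 2 or Ly6Chi moDC replicate 3 (adjusted p = 0.089, 0.102 and 0.0647). Its signals in CD103+ cDC were 254, 283 and 66.2, so replicate 3 lay within the Ly6Chi moDC range of 49.8 to 79.3.

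Gins1 and Gins2, subunits of the GINS complex, had CD14hi moDC arrays above all others. Gins1 gave 304, 545 and 331 in CD103+ cDC, 264, 266 and 241 in Ly6Chi moDC, 699, 685 and 599 in CD14hi moDC, and 319, 543 and 333 in CD14lo cDC. All 3 CD14hi moDC arrays lay above the other 9, and CD103+ cDC overlapped with CD14lo cDC. Gins1 was the only member lower in CD103+ cDC than in CD14hi moDC (log2 difference -0.72 ± 0.22, adjusted p = 0.0145), and was higher in CD14hi moDC than in CD14lo cDC (0.70 ± 0.22, adjusted p = 0.0352). The first of these calls was lost with the Gapdh ratio as a covariate (-0.52, adjusted p = 0.201) and without CD103+ cDC replicate 1 or 3 (adjusted p = 0.0724 and 0.06). The second was lost without any of CD14lo cDC replicates 1 and 3 and CD14hi moDC replicates 1 and 2, at adjusted p values from 0.101 to 0.14.

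Gins2 averaged 667 ± 139 in CD103+ cDC, 352 ± 91.5 in Ly6Chi moDC, 854 ± 29.7 in CD14hi moDC and 505 ± 51.4 in CD14lo cDC (SD, n = 3). Its 3 CD14hi moDC arrays lay above the other 9. It was higher in CD14hi moDC than in CD14lo cDC (0.71 ± 0.19, adjusted p = 0.0163), a call lost without CD14lo cDC replicate 2 or CD14hi moDC replicate 2 (adjusted p = 0.066 and 0.0589). A lower level in Ly6Chi moDC than in CD14hi moDC was called for both, 2.31-fold for Gins1 and 2.29-fold for Gins2 (adjusted p = 0.000565 and 0.000197).

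In the nucleotide supply and fork group, 5 of 7 members were higher in CD103+ cDC than in Ly6Chi moDC (23.2% of all genes). Just 1 was higher than in each middle population (16.9% of all genes against CD14hi moDC and 13.4% against CD14lo cDC). That 1 was Rrm2, the small subunit of ribonucleotide reductase, whose level follows S phase, with signals of 1916, 3647 and 2632 in CD103+ cDC, 231, 215 and 262 in Ly6Chi moDC, 662, 1096 and 612 in CD14hi moDC, and 749, 1109 and 655 in CD14lo cDC. CD103+ cDC arrays lay above all others and Ly6Chi moDC arrays below all others. CD103+ cDC were 3.31-fold higher than CD14hi moDC (log2 difference 1.73 ± 0.24, adjusted p = 1.64e-05) and 3.1-fold higher than CD14lo cDC (adjusted p = 4.86e-05). Ly6Chi moDC were 2.85-fold lower than CD14hi moDC (adjusted p = 0.000185).

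Rrm1, the large subunit of the same enzyme, whose protein is stable through the cycle, averaged 1702 ± 113 in CD103+ cDC, 831 ± 164 in Ly6Chi moDC, 1302 ± 196 in CD14hi moDC and 1258 ± 266 in CD14lo cDC (SD, n = 3). It was 2.01-fold higher in CD103+ cDC than in Ly6Chi moDC, and its differences between CD103+ cDC and the middle populations were not called, at 0.38 ± 0.18 against CD14hi moDC (adjusted p = 0.105) and 0.44 ± 0.18 against CD14lo cDC (adjusted p = 0.0759).

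Uhrf1, which guides maintenance methylation to newly copied DNA, gave 1557, 2882 and 1749 in CD103+ cDC, 344, 325 and 299 in Ly6Chi moDC, 1124, 1739.6 and 1413 in CD14hi moDC, and 1731, 1649 and 1229 in CD14lo cDC. The Ly6Chi moDC arrays formed a group of their own far below the rest, which overlapped. Ly6Chi moDC were 3.9-fold lower than CD14hi moDC (log2 difference -1.96 ± 0.21, adjusted p = 1.83e-06) and 4.21-fold lower than CD14lo cDC (adjusted p = 5.46e-07).

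Chek1, the kinase that restrains mitosis while forks are stalled, gave 259, 321 and 257 in CD103+ cDC, 57.6, 64.5 and 69.8 in Ly6Chi moDC, 229, 320.2 and 242 in CD14hi moDC, and 156, 275 and 149 in CD14lo cDC. It followed Uhrf1, with Ly6Chi moDC alone at the bottom, 2.73-fold below CD14hi moDC (log2 difference -1.45 ± 0.22, adjusted p = 9.5e-05). Tk1, the thymidine kinase of the salvage pathway, was 2.49-fold lower in Ly6Chi moDC than in CD14lo cDC and differed by -0.02 ± 0.22 between CD103+ cDC and CD14lo cDC (adjusted p = 0.954).

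Pcna, the sliding clamp, varied little, at 5635 ± 398 in CD103+ cDC, 4698 ± 145 in Ly6Chi moDC, 6306 ± 898 in CD14hi moDC and 5033 ± 585 in CD14lo cDC (SD, n = 3). Its only call was a lower level in Ly6Chi moDC than in CD14hi moDC (log2 difference -0.41 ± 0.13, adjusted p = 0.0345), lost on centring each array at its median (-0.19, adjusted p = 0.402) and without CD14hi moDC replicate 2 or 3 or any 1 Ly6Chi moDC array (adjusted p from 0.0679 to 0.156). Tyms, thymidylate synthase, averaged at most 87.0 in any population and was called in no comparison. A further probe set for Tyms, which also carries another symbol, was not used.

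**Figure D4:**
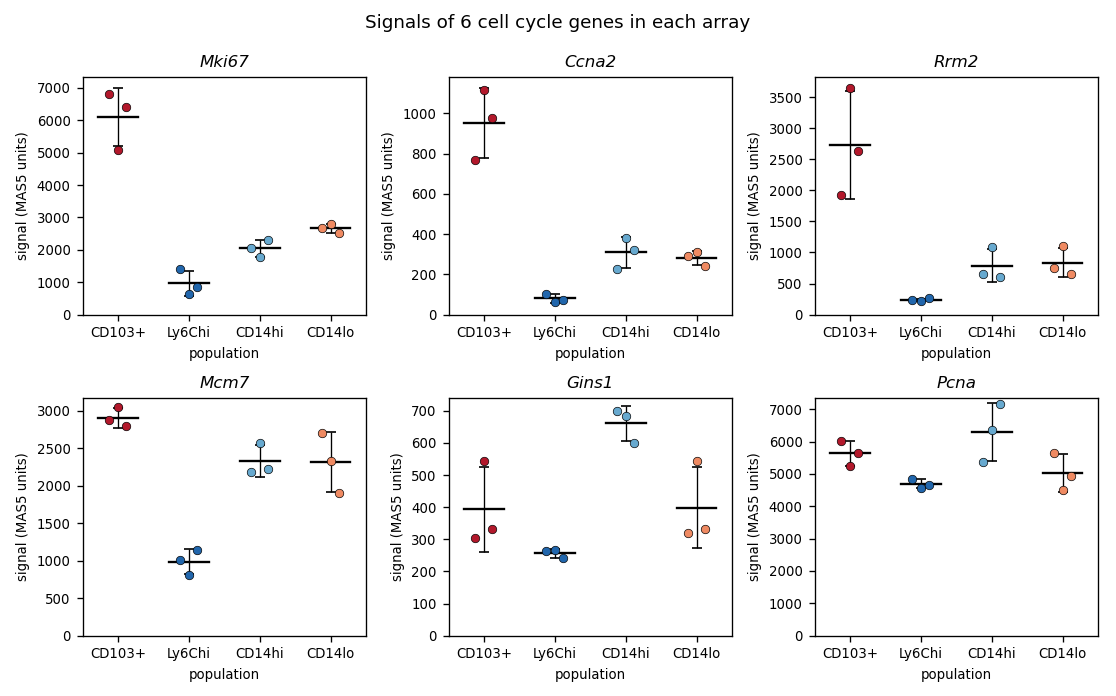
Signals (MAS5 units, linear axes from 0) of Mki67, Ccna2, Rrm2, Mcm7, Gins1 and Pcna in each array, with points for arrays and bars for the mean and SD of 3 arrays per population. Mki67, Ccna2 and Rrm2 set CD103+ cDC apart at the top, Mcm7 sets Ly6Chi moDC apart at the bottom, Gins1 is highest in CD14hi moDC, and Pcna varies little.

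Of 4 transcription factors and E cyclins, 3 were higher in CD103+ cDC than in Ly6Chi moDC (23.2% of all genes). Foxm1, which drives the late mitotic genes, gave 203, 187 and 225 in CD103+ cDC, 42.1, 99.4 and 38.5 in Ly6Chi moDC, 136, 104 and 70.7 in CD14hi moDC, and 122, 158 and 122 in CD14lo cDC. CD103+ cDC arrays lay above the other 9, and Ly6Chi moDC replicate 2 fell within the CD14hi moDC range. It was 2.38-fold higher in CD103+ cDC than in Ly6Chi moDC (log2 difference 1.25 ± 0.24, adjusted p = 0.000274). The call against CD14hi moDC (log2 difference 0.75 ± 0.24, adjusted p = 0.0189) was lost with the Gapdh ratio as a covariate (adjusted p = 0.0948) and without CD103+ cDC replicate 3 or CD14hi moDC replicate 3 (adjusted p = 0.062 and 0.09). A further probe set for Foxm1 that also carries another symbol was not used.

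Ccne1, a cyclin that starts S phase, gave 227, 529.6 and 498 in CD103+ cDC, 131, 13.4 and 162 in Ly6Chi moDC, 164, 431 and 205 in CD14hi moDC, and 295, 434 and 312 in CD14lo cDC. The Ly6Chi moDC arrays were the lowest, with replicate 2 much below the other two, and the remaining populations overlapped. CD103+ cDC were 3.31-fold higher than Ly6Chi moDC (log2 difference 1.72 ± 0.39, adjusted p = 0.00134). Ccne2, its paralog, gave 242, 153 and 146 in CD103+ cDC, 55.9, 48.9 and 80.2 in Ly6Chi moDC, 104, 95.5 and 87.3 in CD14hi moDC, and 187, 79.7 and 71.9 in CD14lo cDC, and was 2.04-fold higher in CD103+ cDC than in Ly6Chi moDC (adjusted p = 0.00304), its only call, which was lost without CD103+ cDC replicates 1 and 3 together (adjusted p = 0.0797). CD103+ cDC lay above Ly6Chi moDC without overlap, and CD14lo cDC replicate 1 fell inside the CD103+ cDC range.

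E2f1, the founding E2F factor, gave 568, 618 and 589 in CD103+ cDC, 382, 639.8 and 600.2 in Ly6Chi moDC, 669, 396 and 529.7 in CD14hi moDC, and 377, 558 and 568 in CD14lo cDC. The 4 populations overlapped and the gene was called in no comparison, with log2 differences from 0.02 for Ly6Chi moDC minus CD14hi moDC to 0.24 for CD103+ cDC minus CD14lo cDC. Of its 3 probe sets above the filter, another put CD14hi moDC above CD14lo cDC by 0.79, so the probe sets of E2f1 did not give the same picture.

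Among 6 mitotic cyclins and kinases measured, 5 were higher in CD103+ cDC than in each of the 3 other populations (9.47% of all genes). The same 5 were lower in Ly6Chi moDC than in each of the others (6.52% of all genes). Ccna2, the cyclin of S and G2 phase, gave 767, 1114 and 974 in CD103+ cDC, 103, 64.9 and 73.0 in Ly6Chi moDC, 229, 380.5 and 320.1 in CD14hi moDC, and 289, 312 and 243 in CD14lo cDC. The populations formed 3 levels that did not overlap, with CD14hi moDC and CD14lo cDC sharing the middle level. CD103+ cDC were 2.8-fold higher than CD14hi moDC (log2 difference 1.49 ± 0.21, adjusted p = 1.64e-05) and 3.0-fold higher than CD14lo cDC (adjusted p = 1.22e-05), and Ly6Chi moDC 2.74-fold lower than CD14hi moDC (adjusted p = 5.79e-05).

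Ccnb2, a B cyclin that partners Cdk1 at the entry to mitosis, gave 507, 582 and 484 in CD103+ cDC, 62.9, 39.2 and 69.4 in Ly6Chi moDC, 198, 238 and 124 in CD14hi moDC, and 188, 283 and 187 in CD14lo cDC. The same 3 levels appeared. CD103+ cDC were 2.47-fold higher than CD14hi moDC (log2 difference 1.31 ± 0.23, adjusted p = 0.000148). Its window above holds CHR and CCAAT letters.

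Melk, a kinase of proliferating cells, gave 237, 352 and 330.2 in CD103+ cDC, 12.1, 12.3 and 29.3 in Ly6Chi moDC, 75.8, 142 and 212 in CD14hi moDC, and 187, 178 and 103 in CD14lo cDC. Ly6Chi moDC arrays were the lowest by a wide margin, and CD103+ cDC arrays lay above all others. CD103+ cDC were 5.23-fold higher than Ly6Chi moDC (log2 difference 2.39 ± 0.27, adjusted p = 6.33e-07). The calls of CD103+ cDC against the middle populations were smaller (0.93 ± 0.27 against CD14hi moDC and 0.80 ± 0.27 against CD14lo cDC) and were lost with the Gapdh ratio as a covariate (adjusted p = 0.0827 and 0.116). They were also lost without CD14hi moDC replicate 1 in the comparison with CD14hi moDC (adjusted p = 0.0744), and without CD103+ cDC replicate 2 or 3 or CD14lo cDC replicate 3 in that with CD14lo cDC (adjusted p = 0.0949, 0.0921 and 0.156).

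Cdk1, the kinase of mitotic entry, was 3.54-fold higher in CD103+ cDC than in Ly6Chi moDC, and Plk1, which acts from entry to cytokinesis, 3.45-fold higher (adjusted p = 8.2e-07 and 3.08e-06). Plk1 read 4.96 to 8.55 in the Ly6Chi moDC arrays, far below the array medians. The call of Cdk1 between Ly6Chi moDC and CD14lo cDC (adjusted p = 0.0453) was lost on leaving out 9 of the 12 arrays in turn, at adjusted p values from 0.0517 to 0.188. Aurka, the centrosome kinase, was at 206 ± 94.7 in CD103+ cDC, 155 ± 12.6 in Ly6Chi moDC, 239 ± 57.7 in CD14hi moDC and 252 ± 50.2 in CD14lo cDC (SD, n = 3), and was called in no comparison.

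Of 10 kinetochore, checkpoint and passenger complex members, 8 were higher in CD103+ cDC than in Ly6Chi moDC (23.2% of all genes). Against CD14hi moDC, 8 were higher (16.9% of all genes), and against CD14lo cDC, 7 were higher and 1 lower (13.4% and 15.3% of all genes). Cdca8, a subunit of the chromosomal passenger complex, gave 4661, 2963 and 4425 in CD103+ cDC, 494, 488 and 799 in Ly6Chi moDC, 1434, 1614 and 1623 in CD14hi moDC, and 1325, 1933 and 1431 in CD14lo cDC. Its 3 levels were separate, with the middle populations overlapping. CD103+ cDC were 2.49-fold higher than CD14hi moDC (log2 difference 1.31 ± 0.20, adjusted p = 4.69e-05) and 2.51-fold higher than CD14lo cDC.

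Cenpe, a kinetochore motor, gave 462, 252 and 357 in CD103+ cDC, 23.8, 17.1 and 11.2 in Ly6Chi moDC, 106, 162 and 74.3 in CD14hi moDC, and 75.6, 74.5 and 108 in CD14lo cDC, and Ndc80, part of the complex that binds microtubules, gave 291, 350.1 and 248 in CD103+ cDC, 17.2, 66.8 and 10.2 in Ly6Chi moDC, 101, 136 and 86.1 in CD14hi moDC, and 86.4, 101 and 78.7 in CD14lo cDC. For both genes the CD103+ cDC arrays lay above and the Ly6Chi moDC arrays below all others. CD103+ cDC were 2.94-fold higher than CD14lo cDC for Cenpe (log2 difference 1.56 ± 0.25, adjusted p = 9.65e-05) and 2.49-fold higher for Ndc80 (1.31 ± 0.25, adjusted p = 0.000597). Nuf2, the partner of Ndc80, was 2.34-fold higher, and Birc5, or survivin, 2.0-fold higher in the same comparison. The checkpoint kinases Bub1 and Ttk were 2.88-fold and 2.53-fold higher in CD103+ cDC than in Ly6Chi moDC.

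Cenpa, the histone variant that marks centromeres, ran the other way and was highest in CD14lo cDC. It gave 229, 244 and 371 in CD103+ cDC, 437, 642 and 311 in Ly6Chi moDC, 233, 238 and 386 in CD14hi moDC, and 709, 566 and 789.9 in CD14lo cDC. CD14lo cDC arrays lay above all CD103+ cDC and CD14hi moDC arrays and overlapped with Ly6Chi moDC. CD103+ cDC were 2.25-fold lower than CD14lo cDC (log2 difference -1.17 ± 0.25, adjusted p = 0.00145) and CD14hi moDC 2.23-fold lower (-1.16 ± 0.25, adjusted p = 0.0027). Its 3 probe sets had the same sign in both comparisons, at -1.17, -0.79 and -0.26 for CD103+ cDC minus CD14lo cDC. Aurkb, the passenger complex kinase, followed most of its group and was 2.15-fold higher in CD103+ cDC than in Ly6Chi moDC, and Bub1b, a checkpoint protein, was called in no comparison at 194 ± 8.65 in CD103+ cDC, 162 ± 17.6 in Ly6Chi moDC, 153 ± 91.5 in CD14hi moDC and 186 ± 85.4 in CD14lo cDC (SD, n = 3).

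All 6 spindle and cytokinesis members were higher in CD103+ cDC than in Ly6Chi moDC (23.2% of all genes). All but Prc1 were higher than in each middle population (16.9% of all genes against CD14hi moDC and 13.4% against CD14lo cDC). Kif11, the motor that pushes the spindle poles apart, gave 479, 746 and 586 in CD103+ cDC, 47.8, 53.7 and 56.2 in Ly6Chi moDC, 181, 205 and 204 in CD14hi moDC, and 212, 281 and 207 in CD14lo cDC. The 3 levels were separate. CD103+ cDC were 2.62-fold higher than CD14hi moDC (log2 difference 1.39 ± 0.20, adjusted p = 1.94e-05), and Ly6Chi moDC 2.4-fold lower than CD14hi moDC (adjusted p = 0.000141).

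Nusap1, a protein that bundles spindle microtubules, gave 728, 505 and 738 in CD103+ cDC, 28.4, 18.0 and 4.84 in Ly6Chi moDC, 132, 159 and 132 in CD14hi moDC, and 147, 337 and 141 in CD14lo cDC. CD103+ cDC arrays were the highest and Ly6Chi moDC arrays the lowest, and CD14lo cDC replicate 2 stood above the rest of the middle arrays. CD103+ cDC were 3.67-fold higher than CD14hi moDC (log2 difference 1.88 ± 0.26, adjusted p = 1.4e-05).

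Kif23, a motor of the central spindle, gave 565, 859 and 390.0 in CD103+ cDC, 142, 111 and 98.6 in Ly6Chi moDC, 199.9, 182 and 216 in CD14hi moDC, and 390.4, 320.3 and 349.6 in CD14lo cDC. Here CD14lo cDC sat above CD14hi moDC without overlap, and CD103+ cDC replicate 3 fell at the level of CD14lo cDC. CD103+ cDC were 2.52-fold higher than CD14hi moDC (log2 difference 1.33 ± 0.23, adjusted p = 0.000134). CD14hi moDC were lower than CD14lo cDC (-0.69 ± 0.23, adjusted p = 0.0451), but this call was lost on leaving out any 1 of the CD14hi moDC or CD14lo cDC arrays, at adjusted p values from 0.067 to 0.133. The call of CD103+ cDC against CD14lo cDC (0.64 ± 0.23, adjusted p = 0.0427) was likewise lost without CD103+ cDC replicate 1 or 2 or any 1 CD14lo cDC array (adjusted p from 0.0596 to 0.226).

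Of the remaining spindle members, Kif20a, a motor of cytokinesis, was 4.89-fold higher and Tpx2, which activates Aurka on the spindle, 4.02-fold higher in CD103+ cDC than in Ly6Chi moDC (adjusted p = 3.23e-06 and 1.02e-05). The calls of Tpx2 against CD14hi moDC and CD14lo cDC (adjusted p = 0.0319 and 0.0348) were lost with the Gapdh covariate (adjusted p = 0.0992 and 0.0806) and without CD103+ cDC replicate 1 or 2, CD14hi moDC replicate 1 or 3, or CD14lo cDC replicate 2 or 3 in the comparison concerned (adjusted p from 0.0648 to 0.199), and that of Kif20a against CD14hi moDC with the Gapdh covariate (adjusted p = 0.108). Prc1, which bundles the central spindle, was 2.41-fold higher in CD103+ cDC than in Ly6Chi moDC and differed by 0.30 ± 0.25 between CD103+ cDC and CD14hi moDC (adjusted p = 0.385).

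All 5 mitotic exit and chromosome structure members were higher in CD103+ cDC than in each of the other populations (9.47% of all genes). All were lower in Ly6Chi moDC than in CD14lo cDC (14.0% of all genes). This group had the largest median difference between CD103+ cDC and Ly6Chi moDC, 2.66. Top2a, the topoisomerase that untangles sister chromatids, gave 840.3, 891 and 815 in CD103+ cDC, 125, 122 and 117 in Ly6Chi moDC, 298, 332 and 346 in CD14hi moDC, and 359.5, 464 and 387 in CD14lo cDC. Arrays of a population lay close together, and the populations formed 4 levels without overlap. CD103+ cDC were 2.4-fold higher than CD14hi moDC (log2 difference 1.26 ± 0.17, adjusted p = 7.9e-06) and 1.99-fold higher than CD14lo cDC (adjusted p = 0.00017).

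Ube2c, the ubiquitin-conjugating enzyme of the anaphase-promoting complex, gave 1823, 2105 and 1428 in CD103+ cDC, 114, 125 and 55.6 in Ly6Chi moDC, 579, 747 and 396 in CD14hi moDC, and 938, 911 and 430.5 in CD14lo cDC. CD103+ cDC were 12.5-fold higher than Ly6Chi moDC (log2 difference 3.65 ± 0.28, adjusted p = 3.15e-09), the largest difference of any member with the pseudocount of 50.0. With a pseudocount of 2% of the trimmed mean, Nusap1 exceeded it, at 4.71 against 4.11 on the log2 scale. CD103+ cDC were 2.36-fold higher than CD14lo cDC (adjusted p = 0.00242). Mki67, the source of the proliferation marker Ki-67, gave 6807, 5088 and 6424 in CD103+ cDC, 1403, 632 and 866 in Ly6Chi moDC, 2065, 1779.7 and 2294 in CD14hi moDC, and 2688, 2795 and 2516 in CD14lo cDC, and CD14lo cDC lay above CD14hi moDC without overlap. Its difference between CD14hi moDC and CD14lo cDC was not called (log2 difference -0.38 ± 0.21, adjusted p = 0.258).

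Cdc20, which activates the anaphase-promoting complex, and Cdca3, a trigger of mitotic entry, were 2.5-fold and 2.98-fold higher in CD103+ cDC than in CD14hi moDC. The call of Cdc20 against CD14lo cDC (adjusted p = 0.0109) was lost with the Gapdh covariate and without CD103+ cDC replicate 3 or CD14lo cDC replicate 1 (adjusted p = 0.0714, 0.0594 and 0.0618), and that of Ly6Chi moDC against CD14lo cDC without Ly6Chi moDC replicate 2 (adjusted p = 0.0536). Several probe sets above the filter were available for 29 members. Among called members with several, all probe sets had the sign of the tested one in 5 of the 6 comparisons, and in Ly6Chi moDC against CD14lo cDC in 20 of 22, with Cdc20 and Top2a the exceptions.

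Genes of the same pathways outside the list were counted in the same comparisons. Of 34 further replication factors tested, 20 were higher and 1, Orc2, lower in CD103+ cDC than in Ly6Chi moDC, where 23.2% of all genes were higher and 24.3% lower. Against CD14hi moDC, 9 were higher and 0 lower (16.9% and 20.3% of all genes), and against CD14lo cDC, 8 were higher and Orc2 again lower (13.4% and 15.3% of all genes). In both, the share called higher was above that of all genes, by less than against Ly6Chi moDC. Timeless, a protein of the replication fork, had the largest difference, 3.32 ± 0.16 against Ly6Chi moDC and 2.81 ± 0.16 against CD14hi moDC, followed against Ly6Chi moDC by Pole, the catalytic subunit of polymerase epsilon (2.08 ± 0.23), and Dut, the dUTPase (1.85 ± 0.16). Ly6Chi moDC were lower than CD14hi moDC in 12 and higher in 0 (11.4% and 6.82% of all genes), led by Prim1, a primase subunit (-1.62 ± 0.19). The list's median difference of CD103+ cDC against CD14hi moDC was 0.26. The call of Orc2, an origin recognition subunit, against Ly6Chi moDC (log2 difference -0.51 ± 0.19, adjusted p = 0.0352) was lost without CD103+ cDC replicate 1 or Ly6Chi moDC replicate 2 or 3 (adjusted p = 0.17, 0.117 and 0.0862), and that against CD14lo cDC on leaving out 10 of the 12 arrays in turn (adjusted p from 0.0545 to 0.211).

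Of 35 further mitotic genes tested, 30 were higher and 0 lower in CD103+ cDC than in Ly6Chi moDC (23.2% and 24.3% of all genes). Against CD14hi moDC, 25 were higher and 1 lower (16.9% and 20.3% of all genes). Against CD14lo cDC, 22 were higher and 0 lower (13.4% and 15.3% of all genes). Cenpn, a centromere protein (2.77 ± 0.24), Cit, a kinase of cytokinesis (2.76 ± 0.23), and Cep55, an abscission factor (2.73 ± 0.29), led against Ly6Chi moDC. Espl1, or separase, which cuts cohesin at anaphase, was the gene that was lower in CD103+ cDC than in CD14hi moDC (-0.81 ± 0.23), a call lost without CD103+ cDC replicate 3 (adjusted p = 0.0598) and with the Gapdh covariate (0.185). The list's median against CD14hi moDC was 0.86. Of 10 recombination and Fanconi genes, which repair broken or stalled forks, 7 were higher in CD103+ cDC than in Ly6Chi moDC and 0 lower (23.2% and 24.3% of all genes), with Brca1 at 2.14 ± 0.23 and Brip1 at 1.55 ± 0.22.

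Of 6 inhibitors of the cyclin-dependent kinases tested, 3 were higher and 0 lower in CD103+ cDC than in Ly6Chi moDC (23.2% and 24.3% of all genes). Against CD14hi moDC 5 were higher and 0 lower (16.9% and 20.3% of all genes), and against CD14lo cDC 3 were higher and 1, Cdkn2d, lower (13.4% and 15.3% of all genes). Cdkn2b, which encodes the Cdk4 and Cdk6 inhibitor p15, gave 2934, 2704 and 2481 in CD103+ cDC, 24.3, 12.6 and 21.9 in Ly6Chi moDC, 705, 973 and 880.1 in CD14hi moDC, and 921, 1525 and 651 in CD14lo cDC. CD103+ cDC arrays were the highest, and Ly6Chi moDC arrays were near the bottom of the scale. CD103+ cDC exceeded Ly6Chi moDC by 5.31 ± 0.23 on the log2 scale (adjusted p = 1.71e-12), more than any member did. Ly6Chi moDC were also lower than CD14hi moDC (log2 difference -3.69 ± 0.23, adjusted p = 1.54e-09).

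Cdkn2c, which encodes p18, gave 749.6, 873 and 889 in CD103+ cDC, 143, 140.1 and 117 in Ly6Chi moDC, 306, 361 and 281 in CD14hi moDC, and 364, 362 and 214 in CD14lo cDC. It showed the same 3 separate levels as the mitotic cyclins, and CD103+ cDC were 2.43-fold higher than CD14hi moDC (log2 difference 1.28 ± 0.20, adjusted p = 4.9e-05). Cdkn2a, dim throughout, averaged 104 ± 11.4 in CD103+ cDC, 4.38 ± 0.44 in Ly6Chi moDC, 36.6 ± 27.8 in CD14hi moDC and 42.5 ± 13.4 in CD14lo cDC (SD, n = 3). It was 2.83-fold higher in CD103+ cDC than in Ly6Chi moDC (adjusted p = 9.07e-05). By these levels it passed the filter through the CD103+ cDC arrays alone. This call, and the counts of inhibitors higher in CD103+ cDC that include Cdkn2a, are to that extent not independent of the filter.

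Cdkn2d, which encodes p19, was instead highest in CD14lo cDC, with 394, 531 and 396 in CD103+ cDC, 464, 563 and 312 in Ly6Chi moDC, 261, 309 and 284 in CD14hi moDC, and 839, 839.8 and 839.6 in CD14lo cDC. CD14lo cDC arrays lay above all others. CD103+ cDC were lower than CD14lo cDC (log2 difference -0.87 ± 0.19, adjusted p = 0.00229), a call lost without CD103+ cDC replicates 1 and 3 together (adjusted p = 0.152). CD14hi moDC were 2.66-fold lower than CD14lo cDC (log2 difference -1.41 ± 0.19, adjusted p = 3.89e-05). Cdkn1b, which encodes p27, was lower in CD14hi moDC than in CD14lo cDC (-0.58 ± 0.16, adjusted p = 0.0187), a call lost without CD14lo cDC replicate 2 or 3 or CD14hi moDC replicate 2 (adjusted p = 0.066, 0.0625 and 0.0829). Cdkn1a, which encodes the p53 target p21, was called in no comparison at 8533 ± 3602 in CD103+ cDC, 9504 ± 545 in Ly6Chi moDC, 6906 ± 1071 in CD14hi moDC and 7470.3 ± 304 in CD14lo cDC (SD, n = 3). Cdkn1c did not pass the filter.

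The D cyclins, which open the G1 phase, each had an order of their own. Ccnd2 followed the members, at 9026 ± 725 in CD103+ cDC, 3769 ± 675 in Ly6Chi moDC, 6144 ± 608 in CD14hi moDC and 6608 ± 699.6 in CD14lo cDC (SD, n = 3), and was 2.4-fold higher in CD103+ cDC than in Ly6Chi moDC (adjusted p = 6.48e-07). Ccnd1 was highest in CD14lo cDC, at 5469.9 ± 71.4 in CD103+ cDC, 3357 ± 143 in Ly6Chi moDC, 6318 ± 515 in CD14hi moDC and 7746 ± 762 in CD14lo cDC (SD, n = 3), with Ly6Chi moDC 1.87-fold lower than CD14hi moDC (adjusted p = 1.84e-05). Ccnd3 gave 1698, 1485 and 914 in CD103+ cDC, 1089.6, 930.4 and 799.9 in Ly6Chi moDC, 745, 992 and 905 in CD14hi moDC, and 3102, 3336 and 3297 in CD14lo cDC. CD14lo cDC lay above all other arrays, and CD14hi moDC were 3.56-fold lower than CD14lo cDC (log2 difference -1.83 ± 0.19, adjusted p = 1.93e-06). Rbl1, the pocket protein p107, was 2.44-fold higher in CD103+ cDC than in Ly6Chi moDC, and Cdk4, which pairs with D cyclins, was lower there (-0.64 ± 0.16, adjusted p = 0.00267), a call lost with the Gapdh covariate (adjusted p = 0.0521).

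**Figure D5:**
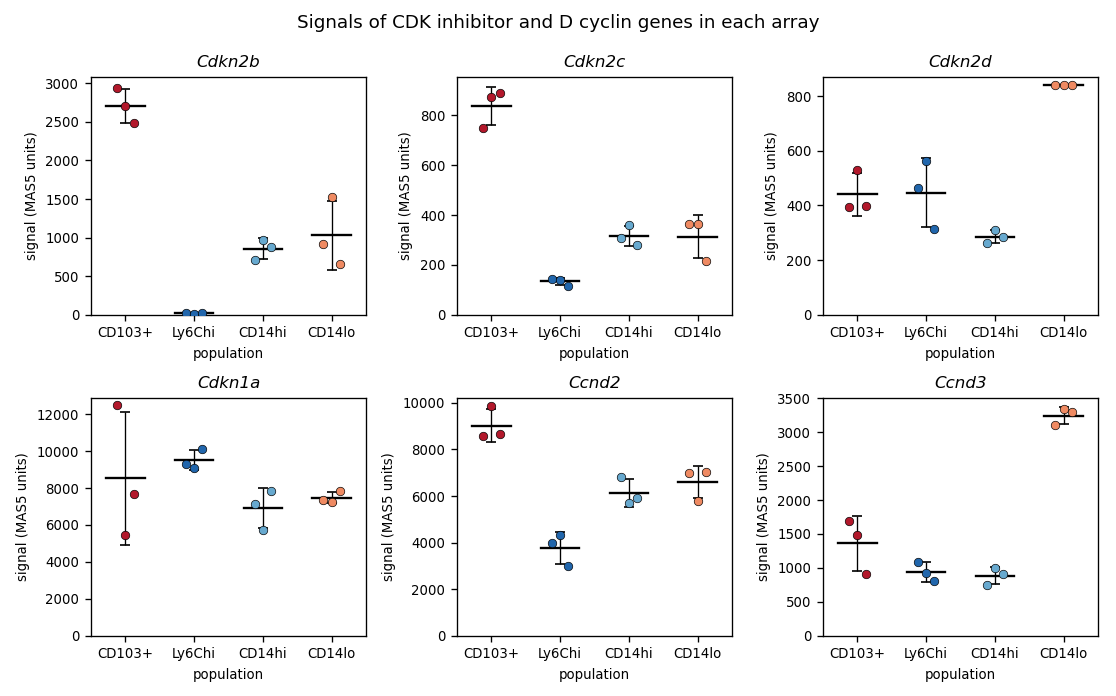
Signals (MAS5 units, linear axes from 0) of the inhibitor genes Cdkn2b, Cdkn2c, Cdkn2d and Cdkn1a and the cyclin genes Ccnd2 and Ccnd3 in each array, with points for arrays and bars for the mean and SD of 3 arrays per population. Cdkn2b, Cdkn2c and Ccnd2 are highest in CD103+ cDC and lowest in Ly6Chi moDC, Cdkn2d and Ccnd3 are highest in CD14lo cDC, and Cdkn1a overlaps between populations.

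Among 17 regulators of the E2F, Myc and DREAM families, 7 were higher and 1 lower in CD103+ cDC than in Ly6Chi moDC (23.2% and 24.3% of all genes). Mycl, the L-Myc gene, gave 934, 1270.0 and 1711 in CD103+ cDC, 53.1, 10.5 and 107 in Ly6Chi moDC, 154, 223 and 126 in CD14hi moDC, and 463, 712 and 443 in CD14lo cDC. CD103+ cDC lay above all others, at 3.73 ± 0.30 against Ly6Chi moDC and 2.62 ± 0.30 against CD14hi moDC (adjusted p = 7.08e-09 and 1.49e-06). The repressor E2Fs E2f7 and E2f8, both E2F targets, were higher in CD103+ cDC than in Ly6Chi moDC by 1.38 ± 0.24 and 1.31 ± 0.19, and Mybl2, which encodes B-Myb, by 1.30 ± 0.28. Lin54, the MuvB subunit that binds the CHR, was the gene that ran the other way, at 314 ± 57.5 in CD103+ cDC, 867 ± 4.24 in Ly6Chi moDC, 584 ± 144 in CD14hi moDC and 543 ± 85.7 in CD14lo cDC (SD, n = 3), lower in CD103+ cDC than in Ly6Chi moDC (log2 difference -1.35 ± 0.19, adjusted p = 1.18e-05). Of 10 p53 and antiproliferative genes, CD103+ cDC had 4 higher and 3 lower than Ly6Chi moDC (23.2% and 24.3% of all genes), so the share called lower was near that of all genes, with Sesn1, a p53 target, the most different at -2.44 ± 0.29.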

How the data were processed

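Biotin-labelled RNA, amplified from 50 ng per pool per the labels' protocols, was hybridized to Affymetrix mouse arrays. The deposited values are linear intensity values per probe set, made by the authors with MAS5 per the submitters' processing notes, and the 2% trimmed mean of each array was 500.003. The MAS5 version and its target were not given in the sources used here, nor were detection calls, so a filter on signal stood in for them. Normalizing arrays to a common mean makes each signal relative to the rest of its array, so a population with more RNA per cell does not read higher.

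Gene names came from the platform annotation: it lists a single symbol for 34945 of 45101 probe sets, more than 1 for 932 and none for 9160, beside 64 controls. Kept were 25138 probe sets above the median of their array in at least 3 arrays, and a gene took its kept probe set with the greatest mean. A pseudocount of 50.0 (10% of the trimmed mean) was added before log2. The 12 arrays entered 1 model with a term for each population in limma 3.58.1 (lmFit, eBayes with an intensity trend, 8 residual degrees of freedom) in R 4.3.3, two-sided, with Benjamini-Hochberg adjustment over 10929 genes. The fit was tested on simulated data. Arrays not overlapping means that every array of one population lay beyond every array compared. Figures were drawn with matplotlib 3.10.9.

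The members, the role groups and the pathway and marker lists were chosen with earlier results of these data known. Values in each array are given for the 3 members of smallest F test p per role group (all members of the group of 4) and for members called against the direction of their group. Pathway genes are named where they had the 3 largest called differences of their list in a comparison, and CDK inhibitors, D cyclins and sort markers in any case. A few others, such as Mybl2, Lin54, Espl1, Cdk4, Rbl1 and the E2F genes, were named after their values were seen. The alternatives were quantile normalization, median centring, pseudocounts of 2% and 20%, no filter, a stricter filter (75th percentile), averaging the probe sets of a gene, only the populations compared, no intensity trend, the Gapdh ratio as a covariate, a replicate block and leaving out each array.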

Additional observations from a re-analysis of the deposited data

How the results depend on the processing

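Of 169 calls of a member in a comparison, 123 were kept under each of 24 alternatives in which they could be tested, 40 of 42 for CD103+ cDC against Ly6Chi moDC, 15 of 27 against CD14hi moDC and 16 of 25 against CD14lo cDC, 27 of 34 and 24 of 37 for Ly6Chi moDC against CD14hi moDC and CD14lo cDC, and 1 of 4, that of Cenpa, for CD14hi moDC against CD14lo cDC. For 28 named pathway genes, 74 of 113 calls were kept and none changed sign. No member's call changed sign in 3902 repeats, 197 were lost, and 103 repeats of uncalled differences passed. The filter at the 75th percentile tested only 25 members, and gave 21, 11 and 12 higher in CD103+ cDC against Ly6Chi moDC, CD14hi moDC and CD14lo cDC, 21 and 19 lower in Ly6Chi moDC against CD14hi moDC and CD14lo cDC, and 24 by the F test.

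Leaving out 1 array gave 41 to 43, 22 to 30 and 18 to 26 members higher in CD103+ cDC against those populations in that order, 29 to 36 and 28 to 37 lower in Ly6Chi moDC, and 42 to 44 by the F test. Small counts moved. CD103+ cDC against Ly6Chi moDC had 0 to 1 lower, with 1 (Cenpa) under quantile normalization, median centring, and without CD103+ cDC, CD14hi moDC or Ly6Chi moDC replicate 3. CD103+ cDC against CD14hi moDC had 0 to 1 lower, with 0 under the Gapdh covariate and without CD103+ cDC replicate 1 or 3, or both. Ly6Chi moDC against CD14hi moDC had 0 to 1 higher, with 1 (Cenpa) under median centring, the mean of probe sets, and without replicate 3 of either. CD14hi moDC against CD14lo cDC had 0 to 2 higher and 1 to 2 lower, with 0 higher without CD14hi moDC replicate 2, 1 higher under median centring, no filter and the mean of probe sets, and 1 lower with no filter.

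Leaving out both CD103+ cDC arrays with a high Gapdh ratio, chosen after seeing the data, leaves 1 array there, assumed to vary like the others, and gave 43 members higher than in Ly6Chi moDC. Median centring moved the median of all genes to -0.14 for CD103+ cDC against Ly6Chi moDC, 0.21 and 0.11 for Ly6Chi moDC against CD14hi moDC and CD14lo cDC, and -0.11 for CD14hi moDC against CD14lo cDC. With the replicate block, 43, 28 and 25 members were higher in CD103+ cDC and 35 and 38 lower in Ly6Chi moDC, in the order above, and 44 passed the F test. Arrays with the same number deviated together only weakly, with correlations across genes from -0.106 to 0.236 and 8 of 12 arrays closest to their own number, so the numbers were not taken as pairs. Dim members set the limit of precision, since signals near or below the array medians cannot be called absent here.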
